A study of Mus musculus with 15 samples.

Results

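The genes described here are the mouse protein-coding genes named Zfp with a 3-digit number that starts with 8 or 9. They were chosen by name and gene type from the deposited count tables, which gave 90 genes of the 54532 listed. Interest in them came from their values in the comparison of the diets within the lung and within the liver, so these diet comparisons are given as a description and nothing is supported with them. Male wild-type C57BL/6J mice, an inbred laboratory strain, received a control diet (CS group) or a diet with 2% phytosterols (PS group), plant sterols that resemble cholesterol, and the labels give an age of 28 weeks for all animals. By the methods the mice were already some weeks old when feeding over that length of time began, so they were older than the labels give. Poly(A) RNA was sequenced with 1 library per tissue and mouse, giving 4 CS and 5 PS livers as well as 3 lungs per diet, and 6 mice gave both tissues. No animal carried a transgene or a deletion by the labels, and each tissue was taken whole, so every value is a mean over all its cells. The total count per library lay between 17934930 and 19396057 in the lung and between 14410117 and 17625179 in the liver.

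C2H2 zinc finger proteins bind DNA through repeated units in which a pair of cysteines and a pair of histidines hold a zinc ion, and consecutive units are joined by a short conserved linker. In many of them a KRAB domain at the N terminus recruits Trim28 (KAP1), which brings in the histone methyltransferase Setdb1, HP1 proteins and further silencing factors. The family is best known for repressing retroelements, and its genes lie in clusters of recent duplicates. Zfp809 recognises the primer binding site of proline tRNA-primed retroviruses. Zfp932, Zfp961 and Zfp819 have also been linked to retroelement silencing, Zfp827 recruits the NuRD complex to chromatin, and Zfp830 takes part in splicing and genome stability.

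The coding sequences bore out the gene names. Of the 90 genes, the deposited annotation put 85 in the transcription factor family zf-C2H2. Translation of 1 coding transcript per gene found a median of 11 C2H2 fingers with a maximum of 22. Of these genes, 80 held 5 or more fingers and 82 held at least 1 linker of the canonical kind. No finger of the searched spacing was found in 4 genes, namely Zfp839, Zfp935, Zfp957 and Zfp972. A KRAB pattern was matched in 75 genes and not in the other 15, Zfp800, Zfp827 and Zfp830 among them. One finger with its linker is shown for the 4 genes with an adjusted p under 0.05 between the diets in the lung and for Zfp970, the gene with an unadjusted p of at most 0.05 in the liver, to show the repeat that these genes share. The sequences are 78 bases of the coding strand of GENCODE M21 transcripts, 5′ to 3′, and the capitals mark the 15 bases that encode the linker.

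Zfp871 (chr17:32775456-32775533, minus strand of GRCm38): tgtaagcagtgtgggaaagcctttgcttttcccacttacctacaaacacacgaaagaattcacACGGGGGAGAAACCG
Zfp932 (chr5:110008837-110008914, plus strand): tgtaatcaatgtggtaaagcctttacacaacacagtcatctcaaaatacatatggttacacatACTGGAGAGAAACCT
Zfp948 (chr17:21587193-21587270, plus strand): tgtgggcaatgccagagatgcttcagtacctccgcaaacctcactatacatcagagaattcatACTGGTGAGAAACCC
Zfp950 (chr19:61120254-61120331, minus strand): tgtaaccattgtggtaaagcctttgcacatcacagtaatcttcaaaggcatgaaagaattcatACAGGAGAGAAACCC
Zfp970 (chr2:177475115-177475192, plus strand): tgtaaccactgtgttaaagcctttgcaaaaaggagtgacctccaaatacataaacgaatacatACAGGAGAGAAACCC

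The genes lay on 14 chromosomes. With neighbours joined across gaps of at most 500000 bases, 64 of the 90 fell into 13 groups of 2 or more. The largest group held 16 genes on chromosome 4 between 145510759 and 147848366, and the next held 11 genes on chromosome 17 between 21567008 and 22867134. Duplication also showed in the transcripts. For 44 of the 90 genes, a transcript of another gene matched with at least 95% identity over at least 200 bases, so reads on these stretches could have been assigned to either copy or dropped. In the chromosome 4 group, 14 of the 16 genes had such a copy. The median GC content of the transcripts was 39.7%, against 48.7% for all protein-coding genes and 46.2% for the 275 protein-coding Zfp genes with lower numbers.

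The 250 bases upstream of the annotated start also differed from the average promoter. RefSeq promoters (GRCm38.p6) were matched for 77 of the 90 genes. The letters CCAAT, read on either strand, occurred in 57 of the 77 (74.0%), compared with 90 of 223 promoters of lower-numbered Zfp genes (40.4%) and 5948 of 16497 protein-coding promoters (36.1%). The longer run CCAATCAG, which contains CCAAT and was searched after the first result was seen, occurred in 27 of 77 (35.1%), against 8.07% and 4.88% of the other sets. Duplicated genes can share a promoter. Among the 44 matched genes without a near-identical copy, the shares were 65.9% for CCAAT and 27.3% for CCAATCAG. Less similar duplicates were not removed from this subset. Of the 58 CCAAT runs on the strand of the gene, 36 (62.1%) began between 75 and 25 bases before the start, a window that held 29.1% of such runs over all protein-coding promoters. CCGGAAG was found in 15.6% of the 77 promoters, 18.8% of lower-numbered Zfp promoters and 9.44% of protein-coding promoters, each on either strand. In the same order CACGTG was found in 13%, 5.38% and 6.81%, AAGATGGCG in 1.30%, 0.448% and 0.733%, and GCGCATGCG in 0, 4.93% and 2.07%. The median number of CG dinucleotides was 7, against 12 over lower-numbered Zfp promoters and 10 over protein-coding promoters. In the same order the median GC content of these windows was 50.4%, 55.2% and 56.0%, and its part in the shares above was not tested. These matches are letters in a window and were not tested as binding sites. The promoters of the 3 genes with the largest diet differences among those called in the lung are shown, with CCAAT or its reverse complement in capitals.

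Zfp871 (chr17:32788288-32788537, minus strand of GRCm38): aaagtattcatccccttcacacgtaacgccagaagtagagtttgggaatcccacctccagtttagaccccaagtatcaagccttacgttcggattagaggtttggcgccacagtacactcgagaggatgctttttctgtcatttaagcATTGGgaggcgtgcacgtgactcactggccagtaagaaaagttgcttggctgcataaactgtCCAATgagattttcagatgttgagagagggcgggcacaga
Zfp932 (chr5:109996260-109996509, plus strand): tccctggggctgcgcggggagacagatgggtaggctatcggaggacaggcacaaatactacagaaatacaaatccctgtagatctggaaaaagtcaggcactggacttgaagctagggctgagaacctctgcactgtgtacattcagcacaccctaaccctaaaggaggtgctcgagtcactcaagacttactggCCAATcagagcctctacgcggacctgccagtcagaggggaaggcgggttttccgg
Zfp950 (chr19:61140841-61141090, minus strand): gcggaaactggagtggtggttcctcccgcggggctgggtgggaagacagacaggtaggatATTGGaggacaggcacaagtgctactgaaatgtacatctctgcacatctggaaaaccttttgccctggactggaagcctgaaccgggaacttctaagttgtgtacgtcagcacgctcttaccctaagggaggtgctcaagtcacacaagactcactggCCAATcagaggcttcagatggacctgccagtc

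Zfp932 and Zfp950, which lie on different chromosomes, shared a run of 15 bases, GGAGGACAGGCACAA, that was found in 2 protein-coding promoters in all, these 2. It began 211 bases before the start of Zfp932 and 187 bases before that of Zfp950. Each promoter also held CCAAT on the strand of the gene, 55 and 32 bases before the start. The run was searched as the longest common to these 2 promoters, so its presence in both was fixed by the search. These 2 promoters are alike in other stretches too, such as that around CCAAT, and a common origin was not tested. The promoter of Zfp871 held 2 CCAAT runs and that of Zfp948 held 0.

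Most of these genes were expressed at low levels (plot of FPKM by gene). FPKM, a count scaled by the length of the gene and the size of the library, is the scale on which genes are compared here. In the lung on the CS diet the median over the 90 genes was 1.40 FPKM and 49 genes reached at least 1 FPKM. In the liver on the CS diet the median was 0.459 FPKM and 28 genes reached 1 FPKM. The maximum was 15.9 FPKM in the lung and 9.45 FPKM in the liver. The medians over all protein-coding genes were 1.75 and 0.301 FPKM.

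**Figure D1:**
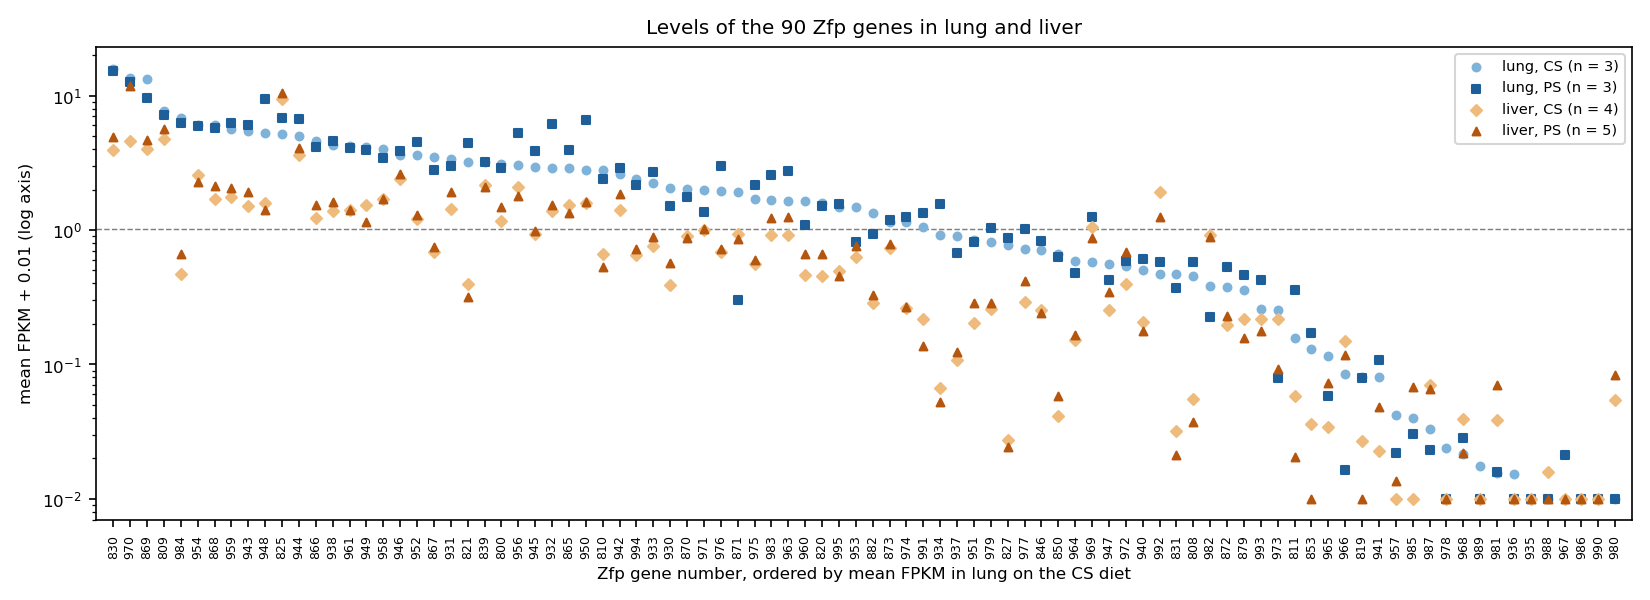
Mean FPKM (plus 0.01, log axis) of each of the 90 genes in the 4 groups, ordered by the level in the lung on the CS diet; the dashed line marks 1 FPKM. In the lung on the CS diet 49 genes lie at or above the line, in the liver 28, and the genes on the right are at or near 0 in every group.

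In the lung of CS mice the highest level was that of Zfp830, with 15.9 ± 0.79 FPKM (SD, n = 3). Zfp970 (13.5 ± 3.6 FPKM, SD, n = 3) and Zfp869 (13.2 ± 1.5 FPKM, SD, n = 3) followed, and these 3 ranges overlapped or touched. Zfp809 at 7.62 ± 0.92 FPKM and Zfp984 at 6.80 ± 0.37 FPKM (both SD, n = 3) came next, below the first 3 and with overlapping ranges. In the liver of CS mice Zfp825 led with 9.45 ± 3.1 FPKM (SD, n = 4). Zfp809 (4.74 ± 0.77 FPKM), Zfp970 (4.54 ± 2.3 FPKM), Zfp869 (4.02 ± 1.0 FPKM) and Zfp830 (3.90 ± 0.63 FPKM; all SD, n = 4) followed and did not differ from each other beyond their spread. Zfp809, the retroviral silencer, was thus among the 5 highest genes of both tissues.

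Other genes of known role were lower. Zfp961 stood at 4.23 ± 0.34 FPKM in the CS lung and 1.40 ± 0.28 FPKM in the CS liver. Zfp800 had 3.07 ± 0.10 and 1.15 ± 0.26 FPKM in the same groups. Zfp827, the NuRD recruiter, had 0.768 ± 0.027 FPKM in the CS lung and 0.0173 ± 0.015 FPKM in the CS liver (SD, n = 3 lungs and n = 4 livers for all 3 genes). Zfp819, a silencer described in germ cells, was close to absent, with 1 to 5 counts in each of the 6 lungs, 3 counts in liver CS replicate 1 and 0 in the other 8 livers.

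The filter on low counts kept 67 of the 90 genes for the lung comparison and 59 for the liver, 58 of them in both, while 22 were kept in neither. Of the 23 genes left out in the lung, 18 had a near-identical copy, and so had 23 of the 31 left out in the liver. The left-out genes had at most 21 counts in any lung and 27 in any liver. In the lung 5 genes had 0 counts in every library, and in the liver 7. The chromosome 4 group supplied 5 genes to the lung fit and 6 to the liver fit, out of 16. The chromosome 17 group supplied all 11 to both.

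The diets were first compared in the lung. One gene, Zfp871, was far lower in the PS group, and Zfp932, Zfp948 and Zfp950 were about doubled. Fewer cells that express a gene and less RNA per cell cannot be told apart in such bulk samples. With edgeR's quasi-likelihood test and Benjamini-Hochberg adjustment over 16717 genes, an adjusted p under 0.05 was reached by 3 of the 67 genes with higher and 1 with lower counts in the PS group. This rule called 9.22% of all genes tested (4.80% higher and 4.43% lower). At an unadjusted p of at most 0.05 the counts were 10 and 2, where the whole table gave 15.6% and 14.5%. Since the genes were chosen with this comparison known, nothing is read from their count.

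Zfp871 (ENSMUSG00000024298, chromosome 17, 32771236 to 32788287) encodes 15 fingers and a KRAB pattern. Its normalised read counts in the 3 CS lungs were 10.5, 8.48 and 11.6 CPM, that is counts scaled to the size of the library. In the 3 PS lungs they were 1.72, 1.45 and 1.49 CPM, which rest on 29, 26 and 27 reads against 207, 165 and 214. All 3 PS lungs thus lay far below all 3 CS lungs, and the PS lungs were close together. The ratio of the group means was 6.56 and the fitted log2 fold change (PS over CS) was -2.71 (SE 0.26, adjusted p = 0.00777 by edgeR). Zfp871 has neither a near-identical copy nor an exon shared with another gene in the annotation used.

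Zfp932 (ENSMUSG00000066613, chromosome 5, 109996521 to 110010411), the retroelement silencer, had 9.25, 9.71 and 9.28 CPM in the CS lungs. In the PS lungs it had 16.5, 25.2 and 18.3 CPM. The groups did not overlap, and the log2 fold change was 1.09 (SE 0.21, adjusted p = 0.0255 by edgeR). A stretch of 1761 bases of its transcript is 97.4% identical to Gm15446, so part of its reads could belong to that gene.

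Zfp948 (ENSMUSG00000067931, chromosome 17, 21567008 to 21588699) was at 13.8, 14.1 and 13.6 CPM in the CS lungs. The PS lungs held 24.1, 30.1 and 19.8 CPM. Here too every PS lung was above every CS lung, with a log2 fold change of 0.84 (SE 0.19, adjusted p = 0.0355 by edgeR).

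Zfp950 (ENSMUSG00000074733, chromosome 19, 61053840 to 61140840) encodes 17 fingers and matched no KRAB pattern. It had 23.7, 31.3 and 34.1 CPM in the CS lungs. Its values in the PS lungs were 40.0, 92.3 and 75.3 CPM, the first of them close to the highest CS lung. The log2 fold change was 1.22 (SE 0.29, adjusted p = 0.0398 by edgeR). Within the CS lungs the highest library was 1.05 times the lowest for Zfp932, 1.03 times for Zfp948 and 1.44 times for Zfp950.

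**Figure D2:**
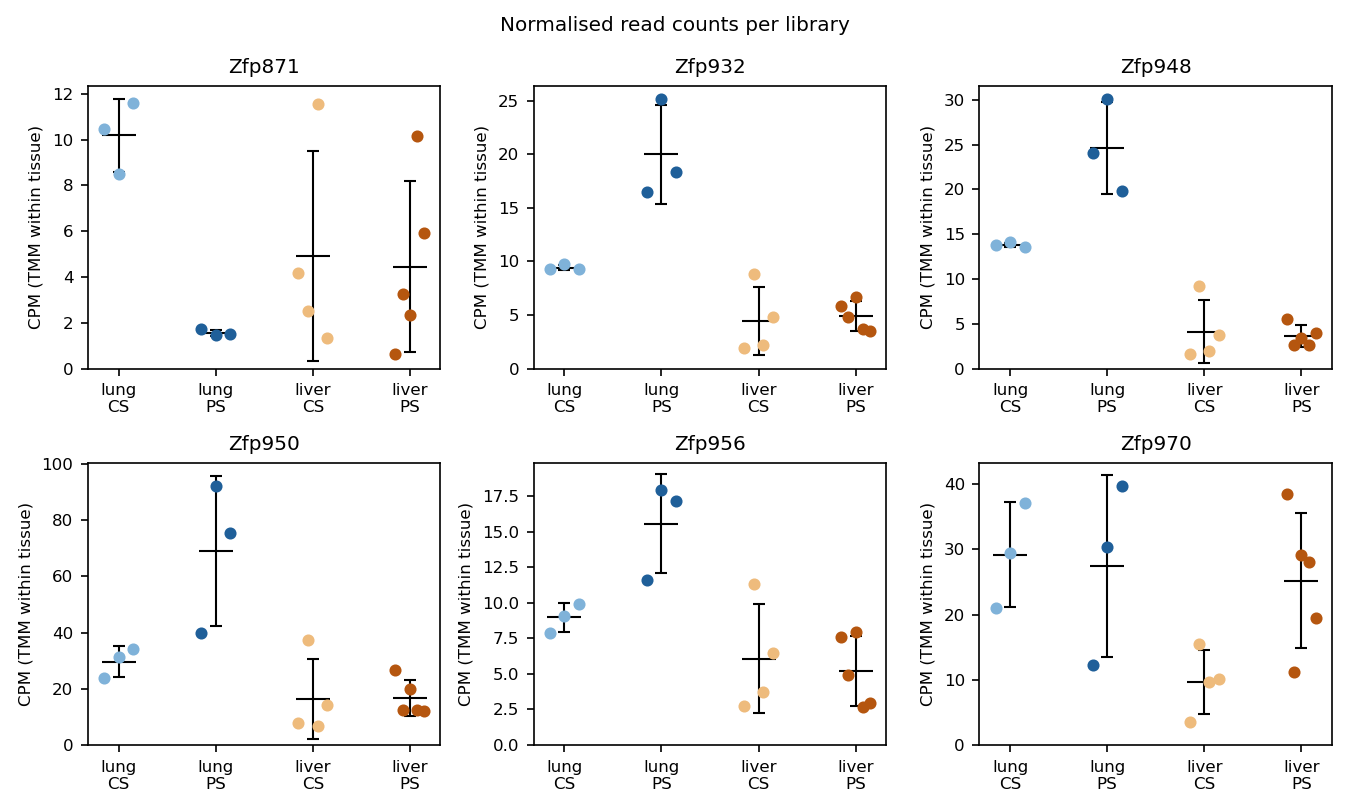
Normalised read counts (CPM after TMM scaling within each tissue, so that levels compare within a tissue) of 6 genes in every library, with the group mean and SD as black marks. In the lung Zfp871 is lower in all 3 PS mice (1.45 to 1.72 CPM against 8.48 to 11.6 CPM) and Zfp932, Zfp948, Zfp950 and Zfp956 are higher, while in the liver the 2 diets overlap for every gene shown.

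The threshold of these calls was sensitive to single libraries. Without any 1 of the 3 CS lungs, or without PS replicate 2, 0 genes were called higher, and over all genes at most 2 were. Without PS replicate 1 the count was 9 higher (all genes, 10.2%), and without PS replicate 3 it was 2 higher and 2 lower (5.55% and 7.67%). Zfp871 was called in every one of the 14 alternative settings except without CS replicate 3, where its adjusted p was 0.056. Its log2 fold change stayed between -2.85 and -2.57.

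Of the 67 genes, 13 were higher in every PS lung than in every CS lung and 6 were lower, where all genes gave 17.3% and 18.8%. Among those that did not pass the test, Zfp956 had 7.88, 9.10 and 9.93 CPM in the CS lungs and 11.6, 17.9 and 17.2 CPM in the PS lungs (log2 fold change 0.79, SE 0.22, adjusted p = 0.0562 by edgeR). Zfp934 (0.76), Zfp963 (0.74), Zfp983 (0.63) and Zfp977 (0.49) had the next highest log2 fold changes among genes with no overlap, and Zfp953 (-0.88), Zfp960 (-0.61) and Zfp971 (-0.56) the lowest after Zfp871. Their adjusted p-values ran from 0.0894 for Zfp934 to 0.386 for Zfp977. The reads of all 8 are uncertain. Zfp934, Zfp953, Zfp960, Zfp963, Zfp971, Zfp977 and Zfp983 have a near-identical copy, such as Zfp97 for Zfp960 (98.8% identity over 2655 bases), and 290 of the 2968 exon bases of Zfp956 overlap Zfp783 on the same strand.

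In 52 of the 67 genes the log2 fold change was within 0.5 of 0, and in 5 it was 1 or more in size (7.46%, against 11.2% of all genes). Besides Zfp871, Zfp932 and Zfp950 these were Zfp811 and Zfp969, whose groups overlapped. Zfp811 had the highest value of the 67 (1.26, SE 0.56, adjusted p = 0.169 by edgeR) on 6, 11 and 12 reads in the CS lungs and 10, 18 and 37 in the PS lungs. Zfp969 (1.11, SE 0.55, adjusted p = 0.208 by edgeR) had 18, 27 and 13 reads against 24, 71 and 20, and a transcript of Zfp966 matched it with 100% identity over 1458 bases. The median was 0.08 on the log2 scale, beside 0.01 over all genes and 0.04 over the 256 lower-numbered Zfp genes tested. The fold change was positive in 37 genes and negative in 30 (55.2% positive, against 50.4% of all genes). Leaving out CS replicate 1 turned the median to -0.03, and leaving out CS replicate 3 raised it to 0.20. It was 0.15 with 44 genes positive when the GC trend of each library was removed (all genes, 0.03), and -0.001 when libraries were scaled by their totals (all genes, -0.07). The highly expressed Zfp830 (-0.07), Zfp970 (-0.09), Zfp869 (-0.46), Zfp809 (-0.10) and Zfp984 (-0.12) all had adjusted p-values above 0.2.

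The liver gave a different picture, with wide spread within the diets. There 0 of the 59 genes fitted were higher or lower in all livers of a diet than in all of the other (all genes, 3.63%). At an unadjusted p of at most 0.05, 1 gene was higher and 0 were lower by edgeR's quasi-likelihood test, against 7.55% of 13195 genes overall (3.96% higher and 3.58% lower). After adjustment none of the 59 was called at 0.05 by edgeR, and 1 gene of the whole table was (0.00758%).

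The gene past the unadjusted threshold was Zfp970 (ENSMUSG00000078866, chromosome 2, 177464733 to 177478129), with 14 fingers and a KRAB pattern. It had 3.53, 15.5, 9.63 and 10.2 CPM in the CS livers. In the PS livers it had 38.5, 11.1, 29.1, 28.0 and 19.4 CPM, so that 4 of the 5 PS livers were above every CS liver and PS replicate 2 was not. The log2 fold change was 1.38 (SE 0.42, unadjusted p = 0.00718, adjusted p = 0.40 by edgeR). A transcript of Zfp965 matched it with 96.4% identity, so its reads are uncertain. In the lung Zfp970 ranged from 12.3 to 39.8 CPM with no order by diet.

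The 3 genes that were higher in the PS lungs varied several-fold among the livers. Zfp932 had 1.88, 8.83, 2.21 and 4.80 CPM in the CS livers and 5.87, 4.83, 6.65, 3.65 and 3.51 CPM in the PS livers. Zfp948 had 1.60, 9.16, 1.97 and 3.71 CPM in the CS group and between 2.61 and 5.56 CPM in the PS group. For Zfp950 the CS livers held 7.72, 37.3, 6.62 and 14.3 CPM and the PS livers 11.9 to 26.6 CPM. In all 3 genes CS replicate 2 was the highest of the 9 livers and CS replicates 1 and 3 were the lowest 2. The fitted log2 fold changes were 0.15 (SE 0.44), -0.18 (SE 0.48) and 0.02 (SE 0.48). The sum of 5 hepatocyte markers was 110732 CPM in that liver and at most 92339 CPM in the other 3 CS livers. It lay between 94274 and 120453 CPM in the PS livers. Its part in these values was not tested.

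Zfp871 also varied widely among the livers. Its CS livers had 4.19, 2.49, 11.5 and 1.34 CPM and its PS livers 0.62, 3.24, 2.33, 10.2 and 5.90 CPM, a range of 18.7 times without separation of the diets (log2 fold change -0.13, SE 0.71). On the TMM scale over both tissues, liver PS replicate 1 (0.896 CPM, 8 reads) lay within the PS lungs (0.803 to 0.977 CPM). Liver CS replicate 3 (17.0 CPM) and PS replicate 4 (15.2 CPM) lay above the CS lungs (4.83 to 6.57 CPM) on that scale.

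Over the 59 genes the median log2 fold change in the liver was 0.15, beside -0.03 over all genes and 0.005 over lower-numbered Zfp genes. Of the 59 genes, 41 were positive (69.5%, against 46.1% of all genes). This lean changed with the libraries used and with removal of the GC trend, and the cause of these changes was not tested. CS replicates 1 and 3 were low across the genes, with median deviations of -0.36 and -0.26 on the log2 scale from the mean of each gene, whereas the other 7 livers lay between 0.01 and 0.18 (plot of medians by library). With the trend of each library with GC content removed, the median became -0.03 (all genes, -0.05) and 26 genes were positive. Without CS replicate 1 the median was 0.04 (all genes, -0.04) and 34 of 61 genes were positive. Without CS replicate 2 the median was 0.33 (all genes, -0.01) and 4 of 61 genes passed the unadjusted threshold (6.56%, against 14.1% of all genes). The spread within groups was also wider than in the lung. The median SD of log2 CPM over the genes was 0.51 in the CS and 0.37 in the PS livers, and 0.13 in the CS and 0.28 in the PS lungs. All genes gave 0.47, 0.34, 0.18 and 0.30 in the same order.

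**Figure D3:**
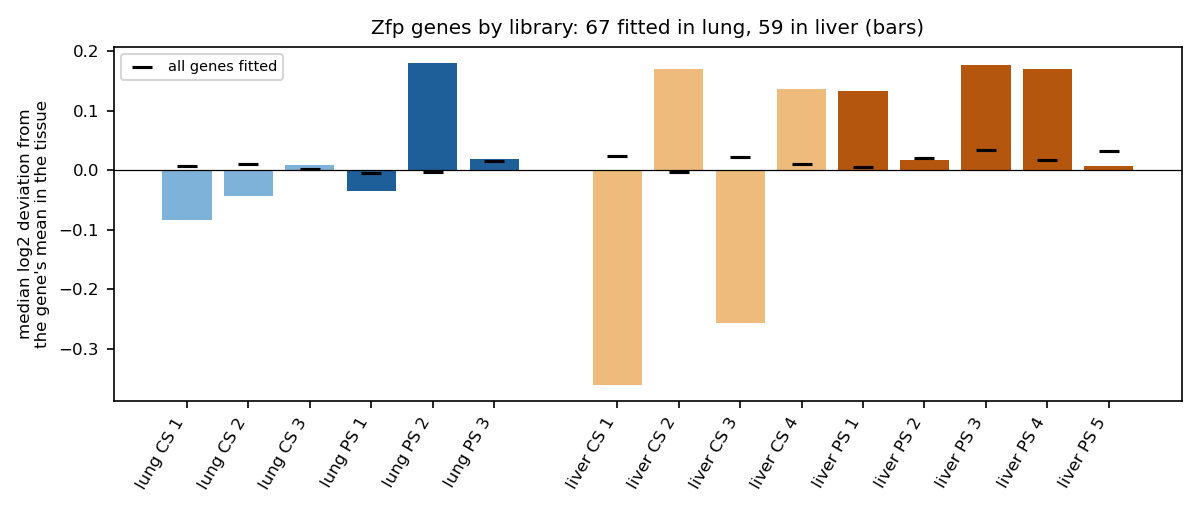
Bars give, for each library, the median over the fitted genes (67 in lung, 59 in liver) of the log2 deviation from the mean of the gene in that tissue, and black marks give the same over all genes fitted. Liver CS replicates 1 and 3 stand at -0.36 and -0.26 while the all-gene marks lie near 0.

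Side by side, the 58 genes fitted in both tissues showed 20 with a positive log2 fold change in both, 6 with a negative one in both, 11 positive in the lung only and 21 positive in the liver only. Of all genes fitted, 50.4% were positive in the lung and 46.1% in the liver. The signs in the liver changed with the libraries and with the GC trend removed, as given above, so nothing is read from these counts. The libraries of the tissues come partly from the same mice. In the test of the difference itself, over all 15 libraries, 0 of 70 genes passed an adjusted p under 0.05 by edgeR's quasi-likelihood test or by DESeq2, where edgeR called 0.0226% and DESeq2 1.32% of all genes. At an unadjusted p of at most 0.05 it named 4 of the 70 (all genes, 10.9%), which were Zfp871 (lung minus liver, -2.62 on the log2 scale), Zfp970 (-1.53), Zfp953 (-1.20) and Zfp930 (-1.04). This contrast is built from the diet comparisons that were known when the genes were chosen, so it is a description too.

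**Figure D4:**
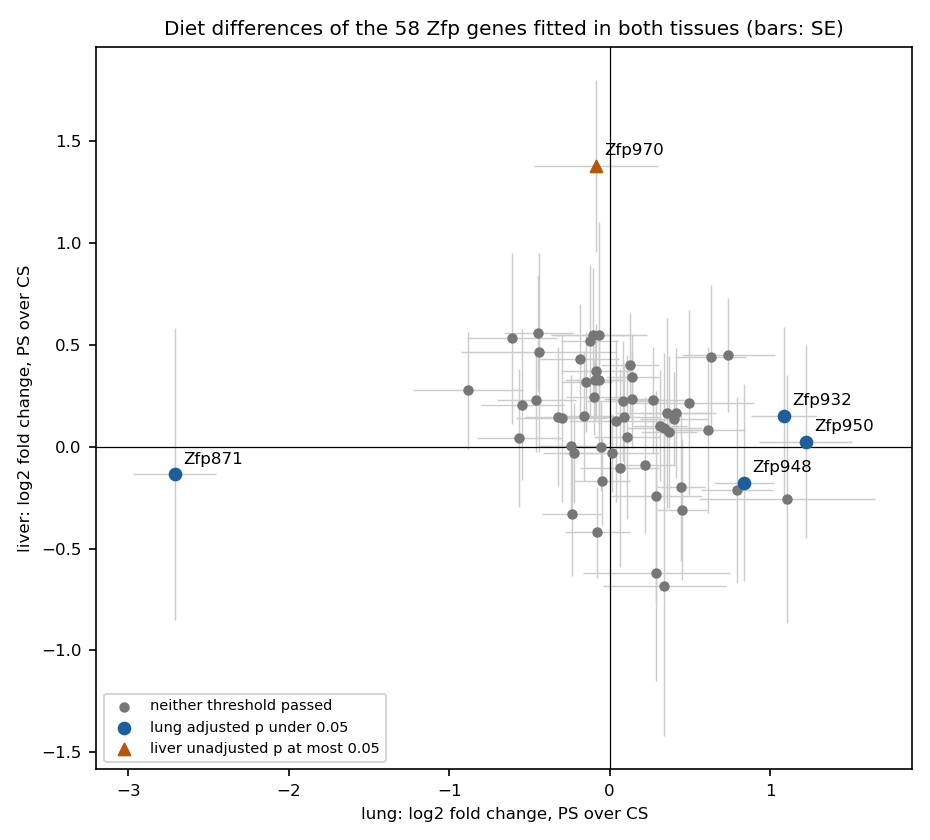
Log2 fold change of PS over CS in the lung (x) and in the liver (y) for the 58 genes fitted in both tissues, with SE bars. Zfp871 stands apart on the left at -2.71 in the lung and -0.13 in the liver, and Zfp970 stands apart at the top at 1.38 in the liver and -0.09 in the lung.

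The comparison of lung with liver did not enter the choice of the genes and was tested. On the TMM scale the share of the genes called was below that over all genes. On the CS diet, 15 genes were higher in the lung and 8 were higher in the liver at an adjusted p under 0.05 by edgeR's quasi-likelihood test, together 32.9% of the 70, where all genes gave 67.1% (37.0% higher and 30.0% lower in the lung) and the 258 lower-numbered Zfp genes 44.6%. Of the 70, 78.6% had a log2 fold change within 1 of 0, against 38.7% of all genes. On the PS diet 12 genes were higher and 12 lower in the lung (38.0% and 30.7% of all genes, 68.7% together), and 13 genes (18.6%) were called on both diets in the same direction, where all genes gave 58.9%. With mouse as a block over the 12 libraries of the 6 mice, the counts were 9 and 3 on the CS diet (all genes, 33.2% and 24.3%) and 10 and 5 on the PS diet (33.9% and 23.8%). Over the 58 genes that passed the count filter in each tissue on its own, 10 were higher in the lung and 7 in the liver on the CS diet, together 29.3%, where 12398 such genes gave 62.6% (3361 higher in the lung and 4401 in the liver). On the PS diet 6 of the 58 were higher in the lung and 11 in the liver, again 29.3%, where such genes gave 64.0% (3418 and 4520). Thus 6 of the 12 genes higher in the lung on the PS diet entered the fit through the lung, and the balance of the directions depends on the filter.

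The zero of this comparison depends on the scaling. Under TMM the median over all genes was 0.18 on the log2 scale and that of the 70 genes was 0.23. When libraries were scaled by their totals alone, a choice added after the data were seen, the median over all genes was 1.55 and 55 of the 70 genes were called higher in the lung with 2 lower. That was 81.4% of the 70, against 79.7% of all genes, so the lower share of calls was not seen under this scaling. Moderate tissue differences of either sign are therefore stated only relative to the TMM scale.

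Of the 15 genes higher in the lung, 5 (Zfp827, Zfp831, Zfp850, Zfp934 and Zfp937) had too few reads in the liver for the diet comparison there and entered the fit through the lung, which fixes their direction. Their values are given without a p. Zfp827 had 128 to 136 reads in the CS lungs and 0 to 5 in the CS livers, and its log2 fold change of lung over liver was 4.09 (SE 0.59). On the PS diet it was 4.48 (SE 0.55). Zfp984, of the chromosome 4 group, had 365 to 399 reads in the CS lungs and 13 to 31 in the CS livers, a log2 fold change of 2.55 (SE 0.32, adjusted p = 2.36e-06 by edgeR). Its reads are uncertain, since 282 of its 2912 exon bases overlap Gm20707 on the same strand and a transcript of Gm13212 matched it with 97.7% identity over 1222 bases. Zfp850 (2.99), Zfp831 (2.95), Zfp934 (2.69) and Zfp937 (1.83) completed the 6 highest of the genes called on the CS diet. On the PS diet the value of Zfp937 was 1.11.

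Of the 8 genes higher in the liver on the CS diet, Zfp825 had the lowest p. A stretch of 818 bases of its transcript is 95.4% identical to Gm15443, so part of its reads could belong to that gene. It had 147 to 156 reads in the CS lungs and 167 to 300 in the CS livers, which on the TMM scale over both tissues gave 4.52 ± 0.284 CPM (SD, n = 3) and 21.0 ± 6.78 CPM (SD, n = 4). The log2 fold change was -2.22 (SE 0.25, adjusted p = 7.27e-07 by edgeR) and -2.0 on the PS diet. Zfp992, another gene of the chromosome 4 group, had the lowest value, -3.39 (SE 0.65, adjusted p = 0.000236 by edgeR). A transcript of Zfp991 matched it with 99.3% identity, and Zfp991 leaned the other way (1.00, adjusted p = 0.19 by edgeR), so the division of reads between the 2 is uncertain. Zfp969 (-2.20) had an adjusted p under 0.05 in 19 of 22 alternatives by edgeR or DESeq2, and not with library totals, with mouse as a block or without lung CS replicate 3. Zfp982 (-2.63) had too few reads in the lung for the diet comparison there and entered the fit through the liver, which fixes its direction, so it is given without a p. Zfp944 (-0.86) and Zfp839 (-0.78) turned positive under that scaling, and they had an adjusted p under 0.05 by edgeR or DESeq2 in 14 and 18 of 23 alternatives. On the PS diet Zfp944 did not pass (-0.66, adjusted p = 0.0706 by edgeR). Zfp809 was lower in the lung on the TMM scale (-0.65 on the CS and -1.04 on the PS diet), although its FPKM was higher there. Over the alternatives its value on the CS diet ran from -1.05 to 0.74, so its direction depends on the processing.

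**Figure D5:**
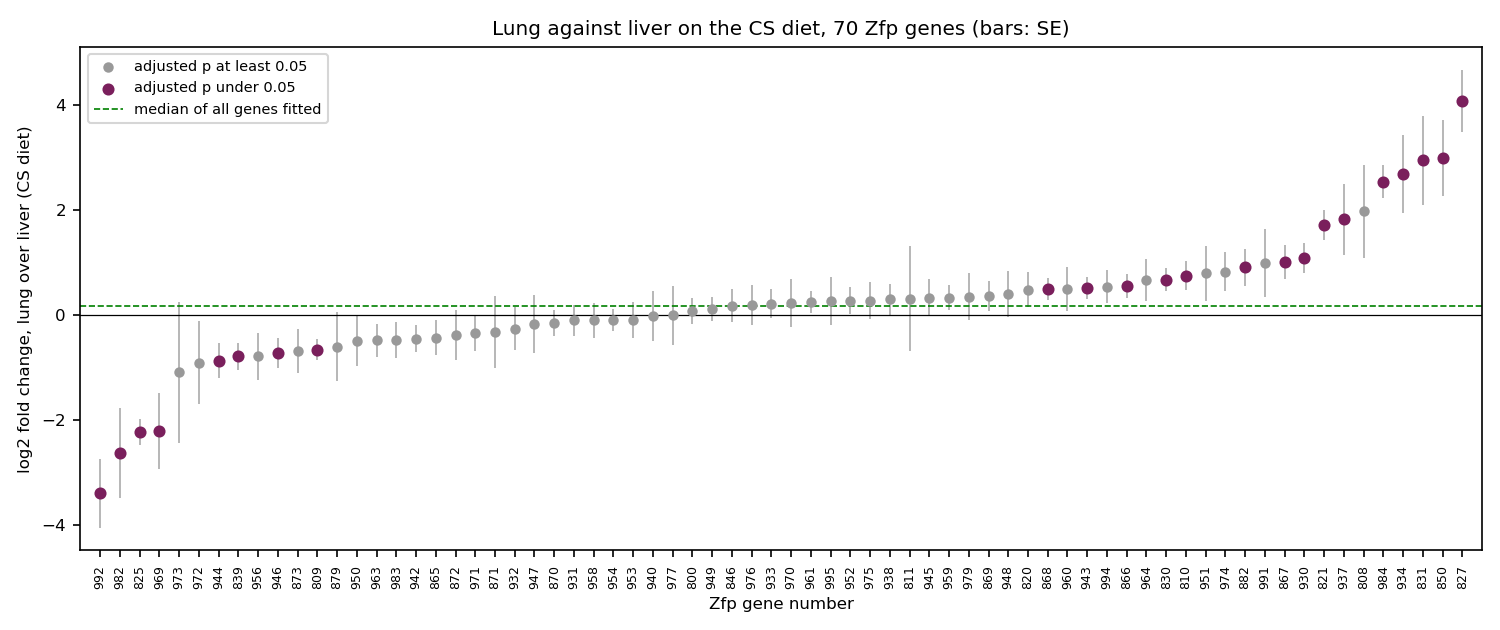
Log2 fold change of lung over liver on the CS diet for the 70 genes fitted, in ascending order with SE bars; purple points passed an adjusted p under 0.05 and the dashed line is the median of all genes. Most points lie near the line, with Zfp827 highest at 4.09 and Zfp992 lowest at -3.39.

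The partners that KRAB zinc finger proteins recruit were also examined, as a list of 18 genes of the silencing machinery. In the lung 1 of the 18 passed an adjusted p under 0.05 by edgeR, with a lower level in the PS group (all genes, 4.43%). The gene was Cbx3, which encodes the heterochromatin protein HP1 gamma. It fell from 51.2, 50.9 and 50.7 CPM in the CS lungs to 22.0, 18.9 and 30.4 CPM in the PS lungs (log2 fold change -1.10, SE 0.19, adjusted p = 0.0213 by edgeR), and its adjusted p was between 0.0786 and 0.083 when any 1 CS lung was left out and 0.0788 without PS replicate 2. Trim28, the corepressor itself, had 92.7 and 92.8 CPM as group means (log2 fold change 0.00, SE 0.19), and the median of the list was -0.07. At an unadjusted p of at most 0.05, 5 of the 18 were lower and 0 higher in the PS lungs (all genes, 14.5% and 15.6%), namely Cbx3, Mphosph8 (-0.65), Cbx5 (-0.45), Pphln1 (-0.45) and Atf7ip (-0.43), of which Cbx3 alone passed after adjustment by edgeR. In the liver 0 of the 17 genes fitted passed an adjusted p under 0.05, and an unadjusted p of at most 0.05 was reached by 1 gene in each direction, Cbx1 (HP1 beta, log2 fold change 0.36) and the DNA methyltransferase Dnmt3b (-0.84), where all genes gave 3.96% higher and 3.58% lower. In liver CS replicate 2, where Zfp932, Zfp948 and Zfp950 were highest, Cbx3 was lowest at 1.95 CPM, and in CS replicates 1 and 3, where they were lowest, it stood at 12.7 and 15.2 CPM. Over all genes, CS replicate 2 also differed most from the other CS livers. The chi-square of its counts against each of them was 237 to 299 per degree of freedom, while among those livers it was 38.3 to 87.3. The order of Cbx3 and the zinc finger genes was noticed after the values were seen and its cause was not tested.

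The libraries matched their tissue labels. The sum of 5 alveolar type II cell markers was 18899 to 19724 CPM in the CS lungs, 21224 to 33502 CPM in the PS lungs and at most 38.9 CPM in the livers, so that every PS lung lay above every CS lung. Hepatocyte markers summed to 77190 CPM or more in every liver and to at most 129 CPM in any lung. The 6 marker lists (also ciliated airway, lymphocyte, cardiac muscle and fat cells) hold 30 genes, of which 28 could be tested in the lung and 10 in the liver. None of those tested passed an adjusted p under 0.05 by edgeR between the diets. Cardiac muscle markers ranged from 158 to 237 CPM in the CS lungs and from 32.4 to 416 CPM in the PS lungs, and fat cell markers from 14.8 to 79.7 CPM and from 8.0 to 49.5 CPM. In the liver the fat cell markers did not overlap, with 22.4 to 72.6 CPM in the CS group and 3.4 to 21.1 CPM in the PS group. The part of these marker levels in the values above was not tested.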

How the data were processed

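The authors aligned reads with HISAT2 2.0.5 to mm10, counted them per gene with featureCounts 1.5.0-p3 and deposited raw counts and FPKM values (counts scaled by gene length and library). The strand setting and gene model are not given in the sources used here. From the counts, edgeR 4.0.16 (TMM, filterByExpr, robust quasi-likelihood test, R 4.3.3, limma 3.58.1) compared the diets within each tissue and, in 1 model over 15 libraries, the tissues within each diet. P-values were adjusted by Benjamini-Hochberg over all genes fitted, and the fits were tested on simulated counts. Each library of a tissue came from its own mouse, so n counts mice. FPKM was used for levels only. All members and lists were chosen with earlier results of these data known.

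Named genes were those with a known role, the 5 highest FPKM per tissue on the CS diet, the 8 highest and 4 lowest diet fold changes without overlap per tissue, the 6 largest tissue differences each way and called corepressor genes. Genes named outside this rule, such as Zfp991 and those without fingers, were chosen after their values were seen. Fingers (C-x2 or x4-C-x12-H-x3 to x5-H), the linker TGEKP and a loose KRAB pattern were counted in translated GENCODE M21 coding sequences, since no protein table was used here. All 90 genes are in M21, 87 with the same start and end. Copies were found by blastn. Alternatives were DESeq2 size factors, DESeq2 1.42.0, other count filters (none, or 10 counts in every library), removal of GC or length trends, a replicate or mouse block, and leaving out each library. Replicate numbers do not mark litters or days and correlated between the diets at -0.01 to 0.10 in the lung, so they were not taken as pairs. The mice pair lung with liver by the labels.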

Additional observations from a re-analysis of the deposited data

Results flagged for a closer look

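Dixon's test at its 95% critical value was applied to the livers of each diet for the named genes and for the median over the genes, 61 sets of 4 or 5 values in all, of which 2 were marked, while chance marks about 1 in 20. Zfp983 stood at 8.28 CPM in PS replicate 3, with the other 4 PS livers between 4.09 and 5.17 CPM. Zfp819 stood at 0.166 CPM in CS replicate 1, which is 3 reads, with 0 reads in the other 3 CS livers. With the others all at 0 the test marks any count above 0, so nothing is read from this mark.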

How the results depend on the processing

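In the lung, the numbers of genes called higher and lower (3 and 1) became 5 higher with DESeq2's Wald test (all genes, 9.65%) and also with the length trend removed (all genes, 6.53%), and 10 higher and 2 lower at an unadjusted p of at most 0.05 (all genes, 15.6% and 14.5%). Library totals alone gave 2 higher and 1 lower (all genes, 2.46% and 5.66%, against 4.80% and 4.43%), with an adjusted p of 0.0543 by edgeR for Zfp950. Leaving out 1 library gave 0 to 9 higher, 0 to 2 lower (all genes, 0% to 10.2% and 0% to 7.67%) and a median log2 fold change of -0.03 to 0.2023. In the liver (1 higher and 0 lower) the counts were 2 and 1 of 83 without a filter (all genes, 3.38% and 3.20%) and 0 higher at an adjusted p under 0.05. Leaving out 1 library gave 1 to 4 higher, 0 to 1 lower (all genes, 2.76% to 7.77% and 2.45% to 6.37%) and a median of 0.0352 to 0.3264.

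For lung against liver on the CS diet (15 higher, 8 lower) the counts were 8 and 14 with the GC trend removed (all genes, 31.3% and 38.0%), 9 and 14 with the length trend removed (all genes, 30.5% and 39.5%), 16 and 2 of 48 with at least 10 counts in every library (all genes, 30.8% and 32.7%) and 9 and 3 with mouse as a block. On the PS diet (12 and 12) they were 19 higher with DESeq2's Wald test (all genes, 41.9%), 5 of 48 lower with at least 10 counts in every library (all genes, 32.1%) and 5 lower with mouse as a block (all genes, 23.8%). Library totals alone gave 55 higher and 2 lower on both diets (all genes, 66.8% and 12.9% on the CS diet and 68.0% and 13.1% on the PS diet), and moved Zfp839 to 0.60 and Zfp944 to 0.54 on the CS diet and to 0.61 and 0.74 on the PS diet. Leaving out 1 library gave 10 to 19 higher and 4 to 9 lower on the CS diet (all genes, 33.6% to 38.2% and 26.5% to 30.9%), and 11 to 13 and 10 to 14 on the PS diet (all genes, 35.1% to 40.1% and 27.4% to 32.8%). The cause of these changes was not tested. The replicate block gave 3 higher and 1 lower in the lung (all genes, 4.89% and 4.82%) and 1 and 0 in the liver (all genes, 1.97% and 1.73%). In the liver it left out PS replicate 5, and the share of all genes called fell from 7.55% to 3.70% while the 2 counts stayed. The replicate numbers did not pair the samples (correlations of -0.36 to -0.03 in the liver).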
